A study of Homo sapiens with 4 samples.

Results

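NFAT5 and the calcineurin-regulated NFAT genes NFATC1, NFATC2, NFATC3 and NFATC4 were followed together with AKR1B1, which encodes aldose reductase, in RNA sequencing of CAL27 cells, a cell line established from human oral squamous cell carcinoma. The 6 genes are 6 of 29437 genes listed in each of 4 tables. They were found by gene name. NFAT5 was selected on its fall between these groups, which is among the largest, the NFATC genes were added as its family and AKR1B1 as its osmotic target. The values of NFAT5 between the groups are therefore a description with no test. The other 5 genes were picked for their family or target role, though with earlier results of these data known. They were read from edgeR's quasi-likelihood test across all genes, with Benjamini-Hochberg adjusted p-values and a threshold of 0.05.

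There were 2 libraries of CAL27 cells labelled CCL20-overexpression and 2 of CAL27 cells labelled negative control, all of polyadenylated RNA. CCL20 is a chemokine that attracts cells carrying the receptor CCR6, and the comparison asks which genes differ when CCL20 is overexpressed. Per the labels, lentivirus (Genechem) was used to establish the CCL20-overexpression cells and RNA was taken after 48 hours. What the negative control cells carried and whether replicates came from separate cultures are not given. The p-values therefore measure the spread between these libraries, which may be technical. Total counts lay between 13681862 and 17860695 per library. The groups also differed as libraries: 22378 and 21433 genes had a read in CCL20-overexpression cells, against 24747 and 24923 in negative control cells, and TMM factors were 0.964 and 0.896 against 1.08 and 1.07. The part of this in the results was not tested. CCL20 itself had 372 and 303 counts in CCL20-overexpression cells and 188 and 202 in negative control cells. It rose 1.94-fold (edgeR adjusted p = 0.0143), and this call ended with the correction for mRNA length described below (log2 fold change 0.06, edgeR adjusted p = 0.916). Of the squamous markers, 3 of 9 tested were higher and 3 lower, where 16.5% of all tested genes were higher and 15.7% lower. With the same correction for mRNA length, 0 of these markers were higher and 0 lower. KRT5 lay between 362 and 521 FPKM (counts scaled by gene length and library total) and KRT14 between 0.712 and 1.11 FPKM. Markers of fibroblasts summed to 2.97 and 3.51 FPKM in CCL20-overexpression cells and 4.74 and 5.58 in negative control cells. Leukocyte markers summed to 1.54 and 2.33 against 1.64 and 1.77 FPKM, and endothelial markers to 5.47 and 5.37 against 8.93 and 8.39 FPKM in the same groups. PTPRC, which defines leukocytes, had at most 1 count per library, and PECAM1, which defines endothelium, at most 2. CDH5 made up most of the endothelial sum. CD14 made up most of the leukocyte sum, with 27 to 55 counts per library, and COL1A1 most of the fibroblast sum, with 249 to 649.

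NFAT proteins are transcription factors that bind DNA through a Rel homology region, which they share with the NF-kB family. NFATC1 to NFATC4 are held in the cytoplasm by phosphorylation. When calcium entry activates the phosphatase calcineurin, they are dephosphorylated, enter the nucleus and act there, often beside AP-1, until kinases such as GSK3 and DYRK drive them out again. NFAT5, also called TonEBP, lacks the calcineurin-binding region and answers to hypertonic stress. It then switches on genes that accumulate compatible osmolytes, among them AKR1B1, which makes sorbitol, and carriers of myo-inositol and taurine.

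Promoter sequences were set beside the values because NFAT proteins recognise a short DNA core, GGAAA, which NFAT5 reads within the longer TGGAAA of its tonicity element. RefSeq (GRCh38.p14) entries matched 5 of the 6 genes, all but NFAT5, with 10 starts in all. The 250 bases before each start were searched for TGGAAA on both strands, where its other strand reads TTTCCA. It was found at 2 of the 10 starts, and 18.0% of the 35116 promoters in the table hold it. The shorter GGAAA, which every TGGAAA contains, was found at 6 of the 10 and in 55.6% of all. The sequences below run 5′ to 3′ with matches to TGGAAA in capitals. NFATC1 and NFATC2 are the genes with a match, NFATC3 fell and AKR1B1 rose. They lie at chr18:79395680-79395929 (plus strand), chr20:51562840-51563089 (minus strand), chr16:68085120-68085369 (plus strand) and chr7:134459101-134459350 (minus strand).
NFATC1: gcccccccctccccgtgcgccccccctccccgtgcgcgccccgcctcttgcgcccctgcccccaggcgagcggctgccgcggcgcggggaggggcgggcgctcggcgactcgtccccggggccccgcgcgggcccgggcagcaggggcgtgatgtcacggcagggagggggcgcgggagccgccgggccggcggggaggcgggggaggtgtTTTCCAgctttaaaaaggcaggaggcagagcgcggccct
NFATC2: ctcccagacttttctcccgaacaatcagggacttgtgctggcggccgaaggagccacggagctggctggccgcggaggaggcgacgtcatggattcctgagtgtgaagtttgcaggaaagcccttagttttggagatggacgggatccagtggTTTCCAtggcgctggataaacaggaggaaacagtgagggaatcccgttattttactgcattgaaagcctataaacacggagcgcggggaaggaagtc
NFATC3: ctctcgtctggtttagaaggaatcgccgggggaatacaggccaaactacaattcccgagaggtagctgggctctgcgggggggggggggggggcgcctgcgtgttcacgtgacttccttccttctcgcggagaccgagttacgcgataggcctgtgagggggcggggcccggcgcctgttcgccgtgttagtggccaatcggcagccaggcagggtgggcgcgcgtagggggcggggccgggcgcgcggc
AKR1B1: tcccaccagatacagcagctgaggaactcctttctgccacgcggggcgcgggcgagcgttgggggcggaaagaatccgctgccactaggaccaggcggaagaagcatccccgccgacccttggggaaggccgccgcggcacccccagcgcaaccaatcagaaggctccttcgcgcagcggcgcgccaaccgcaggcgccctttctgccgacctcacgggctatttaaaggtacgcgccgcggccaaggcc
The match begins 39 bases before the start in NFATC1 and 97 bases before it in NFATC2. A match describes these letters only and does not show that a factor binds there. Bases further from the starts were not searched, so a sequence with no match here may hold one elsewhere. Windows of NFATC4 and of AKR1B1 overlap, so the 10 starts are not all separate sequences. RefSeq starts also differ from the gene positions given below. By those positions the NFATC3 window lies inside the gene, and the printed NFATC1 and AKR1B1 windows run into theirs.

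NFAT5 (ENSG00000102908) is a protein-coding gene on chromosome 16 of GRCh38, from 69565094 to 69704666 on the plus strand, with a principal mRNA of 13229 nt. It had 273 and 119 counts in CCL20-overexpression replicates 1 and 2, against 1450 and 1672 in negative control replicates 1 and 2. Scaled per length and depth, this was 1.08 and 0.430 FPKM in CCL20-overexpression cells and 6.46 and 5.71 FPKM in negative control cells, or 0.757 ± 0.462 against 6.08 ± 0.533 FPKM (SD, n = 2 each). Both CCL20-overexpression libraries lay below both negative control libraries. In such bulk RNA, fewer cells of a kind and less RNA per cell cannot be told apart. The fitted log2 fold change was -2.82 (SE 0.35), a level 7.08-fold lower. The CCL20-overexpression replicates differed among themselves, with replicate 2 at 0.397 of replicate 1 in FPKM, while that ratio was 0.883 in the negative control. Without CCL20-overexpression replicate 1 the log2 fold change was -3.57, and without replicate 2 it was -2.33.

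By size of log2 fold change, NFAT5 was the 56th lowest of 12168 genes tested and the 7th lowest of 10572 coding genes. The genes next to it among the called genes had nearly the same values, which follows from the ranking. PCDHGC3, OGFRP1 and AC135050.5 stood just before it at -2.86, -2.86 and -2.88. KLHL11, BCL9L and AL031600.1 stood just after it at -2.82, -2.80 and -2.79. Of these 6, only PCDHGC3, KLHL11 and BCL9L are protein-coding. AC135050.5, OGFRP1 and AL031600.1 had few reads, with 0 to 7 counts per CCL20-overexpression library and 15 to 46 per negative control library.

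**Figure D1:**
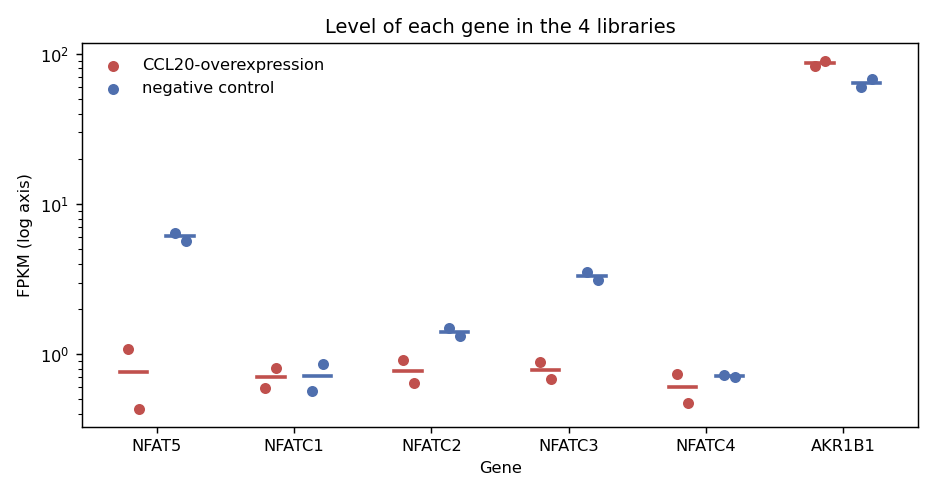
Level of NFAT5, the 4 NFATC genes and AKR1B1 in FPKM on a log axis, with a point for each of the 2 CCL20-overexpression and 2 negative control libraries and a line at each group mean. NFAT5 and NFATC3 show clear gaps between the groups, with NFAT5 at 0.430 to 1.08 FPKM against 5.71 to 6.46 FPKM, while NFATC1 and NFATC4 overlap.

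NFATC3 (ENSG00000072736; chromosome 16, 68084751 to 68229259, plus strand, mRNA of 6040 nt) encodes a calcineurin-regulated factor known from developing T cells and muscle. It had 119 and 101 counts in CCL20-overexpression cells and 422 and 492 in negative control cells. Its level was 0.880 and 0.680 FPKM in CCL20-overexpression cells, against 3.50 and 3.13 FPKM in negative control cells, and the groups did not overlap. NFATC3 fell 3.70-fold (log2 fold change -1.89 with SE 0.21, edgeR adjusted p = 0.00433). It was the 50th lowest of the 10572 tested coding genes. Its last bases overlap the coding gene ESRP2 on the opposite strand, and the strand setting of the counting is not given. ESRP2 had 366 and 477 counts in CCL20-overexpression cells and 612 and 764 in negative control cells.

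NFATC2 (ENSG00000101096; chromosome 20, 51386957 to 51562831, minus strand, mRNA of 7437 nt) encodes the factor first purified from T cells as NFAT1. It had 116 and 90 counts in CCL20-overexpression cells and 170 and 197 in negative control cells, with levels of 0.912 and 0.644 FPKM against 1.50 and 1.33 FPKM. The groups did not overlap in FPKM. Its log2 fold change of -0.66 (SE 0.24) was not past the threshold (edgeR adjusted p = 0.0659). Nor was it with limma on log2(FPKM + 1) or log2(FPKM + 0.1), which use no TMM factors (-0.45 and -0.80, limma adjusted p = 0.0894 and 0.114). In edgeR it was past the threshold at -0.87 with total count scaling (edgeR adjusted p = 0.0295) and on a TPM scale at -1.15 (edgeR adjusted p = 0.0160). In these settings, both without TMM factors, 34.8% and 41.2% of all genes were called. These scales moved the median of all genes to -0.21 and -0.49, so that NFATC2 kept nearly the same distance from it. It was also past the threshold without CCL20-overexpression replicate 1 (-0.88, edgeR adjusted p = 0.00140), a fit that called 62.3% of all genes.

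NFATC1 (ENSG00000131196; chromosome 18, 79395856 to 79529325, plus strand, mRNA of 4642 nt) encodes the factor known for osteoclast formation and heart valves, and NFATC4 (ENSG00000100968; chromosome 14, 24365673 to 24379604, plus strand, mRNA of 4749 nt) one known from neurons and heart muscle. NFATC1 had 0.596 and 0.804 FPKM in CCL20-overexpression cells and 0.572 and 0.864 FPKM in negative control cells. NFATC4 had 0.741 and 0.471 FPKM in CCL20-overexpression cells and 0.728 and 0.703 FPKM in negative control cells. In both genes the groups overlapped. Their mean FPKM was under 1, the minimum of the main test, and they were read from a fit of the 17997 genes averaging 0.2 FPKM or more. There the log2 fold change was 0.20 (SE 0.29, edgeR adjusted p = 0.654) for NFATC1 and -0.01 (SE 0.28, edgeR adjusted p = 0.988) for NFATC4. Both genes had 67 to 140 counts per library, and differences of the size of these SEs were not detectable with these libraries.

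AKR1B1 (ENSG00000085662; chromosome 7, 134442350 to 134459284, minus strand, mRNA of 1409 nt) encodes aldose reductase, which reduces glucose to the osmolyte sorbitol. It had 4704 and 5559 counts in CCL20-overexpression cells and 3036 and 4461 in negative control cells. Its level was 83.7 and 90.0 FPKM in CCL20-overexpression cells, against 60.6 and 68.2 FPKM in negative control cells, with no overlap between the groups. AKR1B1 rose 1.56-fold (log2 fold change 0.64 with SE 0.17, edgeR adjusted p = 0.0234). It was thus higher in the libraries in which NFAT5 was lower. The call ended with total count scaling (0.43, edgeR adjusted p = 0.0749), when scaled to TPM (0.14, edgeR adjusted p = 0.521), and likewise without negative control replicate 1 or 2 (0.55 and 0.73, edgeR adjusted p = 0.409 and 0.230), fits that called only 5.34% and 8.13% of all genes.

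Of the 5 genes other than NFAT5, 3 passed the minimum of 1 FPKM, and of these NFATC3 was lower, AKR1B1 was higher and NFATC2 was not called. In this test 32.2% of all genes were called, 15.7% lower and 16.5% higher. Groups did not overlap in FPKM for 46.9% of tested genes on the lower and 25.8% on the higher side. NFAT5, NFATC2 and NFATC3 passed the minimum through the negative control, since each averaged under 1 FPKM in CCL20-overexpression cells. All 5 genes passed a minimum of 0.2 FPKM in each group. In that fit NFATC3 was lower (edgeR adjusted p = 0.000889), AKR1B1 was higher (edgeR adjusted p = 0.0167) and the other 3 were not past the threshold, where 24.1% of all genes were called, 11.6% lower and 12.5% higher. Over the remaining settings, the share of all genes called was 32.4% with DESeq2 size factors in edgeR, 33.9% with DESeq2, 31.7% and 29.7% with limma at pseudocounts of 1 and 0.1, 17.6% without a minimum, 15.9% with an exonic length offset, 47.3% with a replicate block and 52.7% without CCL20-overexpression replicate 2.

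In negative control cells NFAT5 was highest at 5.71 to 6.46 FPKM, NFATC3 followed at 3.13 to 3.50 and NFATC2 at 1.33 to 1.50, and these ranges did not overlap. NFATC1 and NFATC4 came last and overlapped each other, at 0.572 to 0.864 and 0.703 to 0.728 FPKM. In CCL20-overexpression cells the 5 genes lay between 0.430 and 1.08 FPKM, and the ranges of NFAT5, NFATC2 and NFATC3 overlapped, so that their order was not resolved there. NFAT5 was the highest of the 5 in CCL20-overexpression replicate 1 and the lowest in replicate 2. The summed NFAT level was 4.21 and 3.03 FPKM in CCL20-overexpression cells and 12.8 and 11.7 FPKM in negative control cells. NFAT5 made up 25.7% and 14.2% of that sum in CCL20-overexpression cells, against 50.6% and 48.6% in negative control cells.

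**Figure D2:**
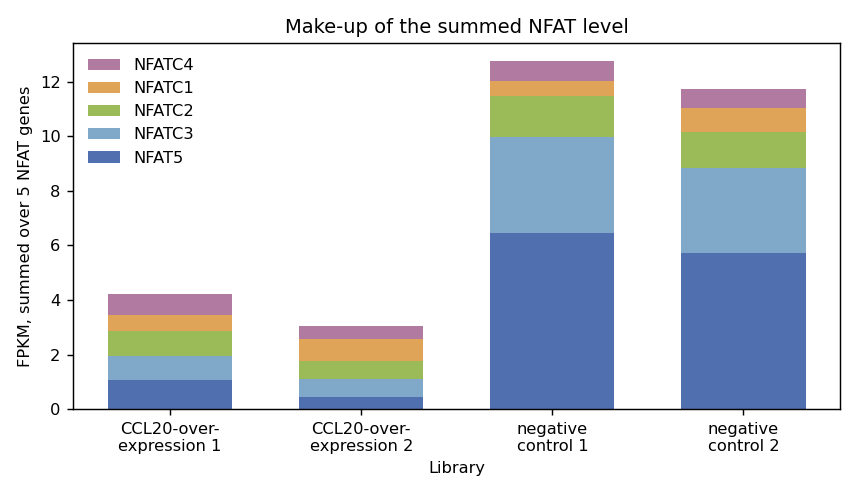
FPKM of the 5 NFAT genes stacked in each library, with the bar height as their sum. The CCL20-overexpression bars reach 4.21 and 3.03 FPKM and the negative control bars 12.8 and 11.7 FPKM, and most of the gap is in the NFAT5 and NFATC3 segments.

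Fold changes followed mRNA length in these libraries, with a Spearman correlation of -0.73 over 10572 coding genes, which are not independent and share the same 4 libraries. The coding genes were split by mRNA length into 10 classes of equal size. NFAT5 and NFATC2 lie in the class of the longest mRNAs, where the median log2 fold change was -0.73 and 649 of 1058 genes were called lower. In that class NFAT5 had the lowest log2 fold change of all 1058 genes, and NFATC2 was the 597th lowest. NFATC3 lies in the class of 5143 to 6741 nt, with a median of -0.54, and was the 9th lowest of 1057. AKR1B1 lies among short mRNAs, in the class of 1272 to 1735 nt, with a median of 0.61, and was near the middle at the 566th lowest of 1057.

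A fit with an offset for mRNA length in each library was run for the coding genes, in which 6.87% were called, 3.22% lower and 3.65% higher. The log2 fold change of NFAT5 was then -2.00 (SE 0.30), a level 4.01-fold lower, and it was the 28th lowest of 10572. NFATC3 was also past the threshold in this fit, at -1.35 (SE 0.19, edgeR adjusted p = 0.0113), a level 2.56-fold lower. It was then the 113th lowest of 10572. NFATC2 was at -0.03 (SE 0.22, edgeR adjusted p = 0.951). For AKR1B1 the call ended, at 0.02 (SE 0.15, edgeR adjusted p = 0.955). Its principal mRNA of 1409 nt is far shorter than its exonic length of 3660 nt. With an offset for exonic length it was at 0.41 (edgeR adjusted p = 0.105). NFATC1 and NFATC4, in the fit with the mRNA length offset and a minimum of 0.2 FPKM, were at 0.54 (SE 0.31, edgeR adjusted p = 0.315) and 0.34 (SE 0.27, edgeR adjusted p = 0.481). That fit called 7.94% of coding genes, 3.39% lower and 4.55% higher.

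**Figure D3:**
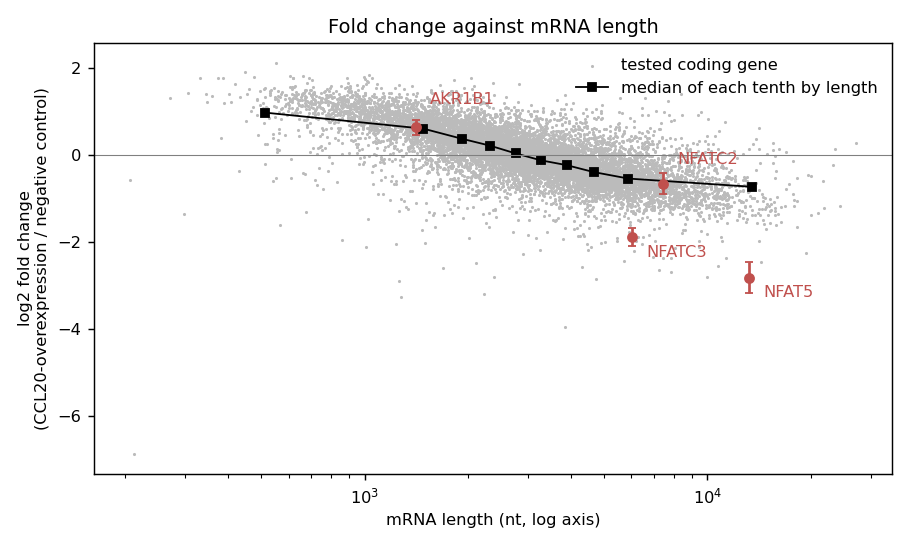
Log2 fold change against mRNA length on a log axis for tested coding genes (grey), with the median of each of 10 classes by length (squares, from 0.98 to -0.73) and NFAT5, NFATC2, NFATC3 and AKR1B1 in red with bars of 1 SE. AKR1B1 and NFATC2 sit near the medians, while NFAT5 and NFATC3 sit below them.

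**Figure D4:**
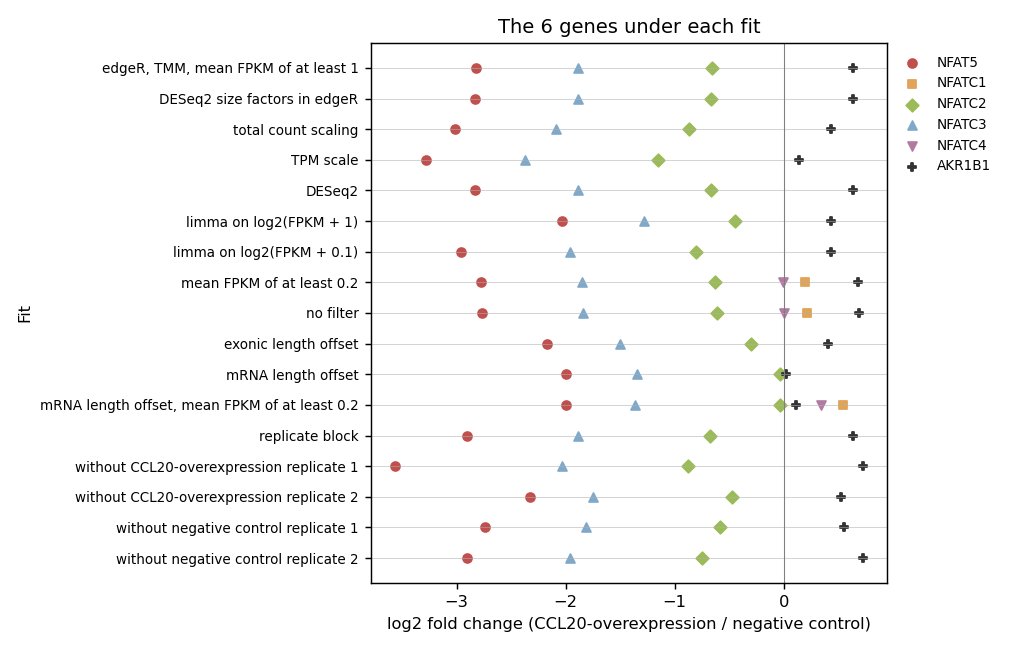
Log2 fold change of the 6 genes (horizontal axis) under each fit (rows), without error bars. NFAT5 lies between -3.57 and -2.00 and NFATC3 between -2.37 and -1.28 in all rows, while AKR1B1 moves between 0.02 and 0.73.

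Of the 6 nearest protein-coding neighbours of NFAT5 on chromosome 16, 5 were tested at the minimum of 1 FPKM. Of these, 1 was called higher and 0 lower, where 16.5% of all tested genes were higher and 15.7% lower. On the side before NFAT5, TERF2, a telomere-binding protein, had a log2 fold change of -0.01 (edgeR adjusted p = 0.979) and CYB5B, an outer mitochondrial membrane cytochrome, had 23.8 and 16.5 FPKM in CCL20-overexpression cells against 24.5 and 21.6 FPKM in negative control cells. TMED6 had 10 counts or fewer in every library and was under that minimum. In the fit with a minimum of 0.2 FPKM its log2 fold change was -0.84, with an SE of 1.12 (edgeR adjusted p = 0.627). On the side after it, NQO1, a quinone reductase, rose 1.76-fold (log2 fold change 0.81, edgeR adjusted p = 0.0105), and its call held under the mRNA length offset (0.84, edgeR adjusted p = 0.0205). NOB1, a ribosome maturation factor, was at 0.17 (edgeR adjusted p = 0.491), and WWP2, a ubiquitin ligase, at -0.51 (edgeR adjusted p = 0.0515). The intronic transcript AC009032.1, which lies inside NFAT5 on its strand, had at most 6 counts per library.

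The genes most like NFAT5 were sought by the Euclidean distance between TMM-scaled log2 CPM values centred per gene, over the 4 libraries and 12167 other tested genes. ARHGAP5, which encodes a GTPase-activating protein, was the closest at a distance of 0.20. It had 1.50 and 0.610 FPKM in CCL20-overexpression cells and 8.21 and 6.76 FPKM in negative control cells. The next were Z95152.1, AP000943.2, PKD1P6 and ANKRD18EP at distances of 0.27 to 0.31. These 4 are not protein-coding. They averaged 0.268 to 0.533 FPKM in CCL20-overexpression cells and so passed the minimum of 1 FPKM through the negative control. All 5 genes had, like NFAT5, a lower value in CCL20-overexpression replicate 2 than in replicate 1. This follows from choosing them by these same values and is no separate finding. NFATC3 was at a distance of 1.26, with 119 other genes closer to NFAT5.

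Of 17 genes known from other work as osmotic targets of NFAT5, 15 were tested, with 5 higher and 3 lower. Over all tested genes 16.5% were higher and 15.7% lower, and these shares are the background of each list that follows. The number called changed with the library left out, and so did the share called over all genes. The median log2 fold change of the 15 osmotic targets was 0.34, against 0.00 over all tested genes. Their mRNAs had a median of 2401 nt. SLC6A6, the taurine carrier, had 4.11 and 3.58 FPKM in CCL20-overexpression cells against 10.3 and 11.3 FPKM in negative control cells, and fell 2.44-fold (log2 fold change -1.28 with SE 0.17, edgeR adjusted p = 0.00433). It was the only one of the 15 called with the mRNA length offset (-0.71, edgeR adjusted p = 0.0394). SLC5A3, the myo-inositol carrier, had 6.61 and 3.77 FPKM in CCL20-overexpression cells against 12.4 and 10.6 FPKM in negative control cells, and fell 1.94-fold (log2 fold change -0.96, edgeR adjusted p = 0.0207). With the mRNA length offset it was at -0.17 (edgeR adjusted p = 0.658), and its value is uncertain because SLC5A3 overlaps MRPS6 on the same strand.

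On the higher side, HSPB1, a small heat shock protein, had 146 and 201 FPKM in CCL20-overexpression cells against 73.7 and 85.4 FPKM in negative control cells. It rose 2.53-fold (log2 fold change 1.34, edgeR adjusted p = 0.00559). Under the mRNA length offset it was at 0.46 (edgeR adjusted p = 0.162). The other called genes, named after their values were seen, were HSPA1A, S100A4 and CIRBP, which were higher, and HSPA4L, which was lower. HSPA1A has a near-identical copy in HSPA1B, so its value is uncertain. The list median with the mRNA length offset was -0.07, against 0.03 for all coding genes.

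The polyol pathway that AKR1B1 opens had 2 of 5 tested genes higher, AKR1B1 itself and AKR1A1, and none lower (0 of 5). AKR1B1 is also counted among the osmotic targets above. The median log2 fold change of the 5 genes was 0.64, and their mRNAs had a median of 1590 nt. With the mRNA length offset 0 of the 5 were called. AKR1A1, an aldehyde reductase of the same enzyme family, had 30.3 and 32.0 FPKM in CCL20-overexpression cells and 18.9 and 17.2 FPKM in negative control cells, and rose 1.99-fold (edgeR adjusted p = 0.00604). Under the mRNA length offset it was at 0.35 (edgeR adjusted p = 0.213). SORD, which turns sorbitol into fructose and was named for that role, was at 0.08 (edgeR adjusted p = 0.730).

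Cell volume genes were lower in 6 of 14 tested and higher in 0. The median of their log2 fold changes was -0.57, and their mRNAs had a median of 5022.5 nt. WNK1, a kinase that senses chloride and crowding, had 5.93 and 4.72 FPKM in CCL20-overexpression cells against 16.0 and 15.2 FPKM in negative control cells, and fell 2.55-fold (log2 fold change -1.35, edgeR adjusted p = 0.00433). WNK2, a kinase of the same family, fell 2.05-fold. LRRC8A, the obligatory subunit of the volume-regulated anion channel, fell 1.60-fold (edgeR adjusted p = 0.0224), and so did SLC12A7, 1.67-fold, and LRRC8B, 1.50-fold, which was named after its value was seen. Under the mRNA length offset 0 of the 14 were called and the median was -0.06. WNK1 was then at -0.58 (edgeR adjusted p = 0.0563).

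**Figure D5:**
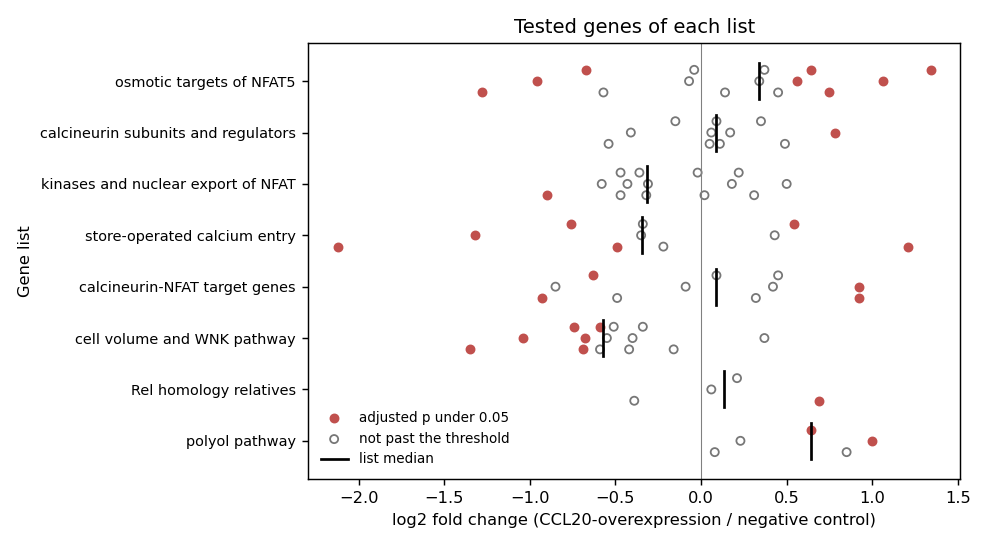
Log2 fold change of the tested genes of each list, with filled points past the threshold of 0.05, open points not past it and a bar at the list median. The medians run from -0.57 for cell volume genes to 0.64 for the polyol pathway, and ITPR3 is the leftmost point at -2.12.

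Calcineurin is the phosphatase upstream of NFATC1 to NFATC4. Of 11 tested genes for its subunits and regulators 1 was higher and 0 were lower, where 16.5% of all tested genes were higher and 15.7% lower. The median of their log2 fold changes was 0.09. CALM2, which encodes calmodulin, had 102 and 87.1 FPKM in CCL20-overexpression cells and 64.1 and 62.7 FPKM in negative control cells (log2 fold change 0.78, edgeR adjusted p = 0.00914). In the fit with the mRNA length offset CALM2 was at 0.11 (edgeR adjusted p = 0.707). Its principal mRNA of 1302 nt is far shorter than its exonic length of 6466 nt. The catalytic subunits PPP3CA and PPP3CB, named for that role, were at -0.41 and 0.05 (edgeR adjusted p = 0.129 and 0.859).

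Among store-operated calcium entry genes, which feed calcineurin, 2 were higher and 4 lower of 10 tested. The median of their log2 fold changes was -0.35, and their mRNAs had a median of 4005 nt. ITPR3, a calcium release channel of the endoplasmic reticulum, had 6.13 and 7.95 FPKM in CCL20-overexpression cells against 35.5 and 35.6 FPKM in negative control cells. It fell 4.36-fold (log2 fold change -2.12 with SE 0.20, edgeR adjusted p = 0.00433). Under the mRNA length offset it was past the threshold (-1.37, edgeR adjusted p = 0.0152), alone in the list. ITPR3 overlaps UQCC2 on the opposite strand. Other called genes of the lists also overlap a coding gene, among them CCND1, PLCG1, LRRC8A, SLC6A6, WNK2 and IL6 on the opposite strand and S100A4 on the same strand, and without a stated strand setting it is not known whether reads of opposite-strand pairs were separated. The partners of WNK2, SLC6A6 and IL6 had at most 7 counts per library.

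ITPR2, a second release channel, fell 2.49-fold, and PLCG1, which makes the messenger that opens these channels, fell 1.70-fold. ITPR2 averaged 0.932 FPKM in CCL20-overexpression cells against 2.66 FPKM in negative control cells. It thus passed the minimum of 1 FPKM through the negative control. In the fit with a minimum of 0.2 FPKM its log2 fold change was -1.28 (edgeR adjusted p = 0.00283). The calcium sensor STIM1, named after its value was seen, was at -0.49 (edgeR adjusted p = 0.0483). ORAI3, a plasma membrane channel subunit, rose 2.31-fold, with 2.19 and 2.02 FPKM in CCL20-overexpression cells and 1.08 and 1.02 FPKM in negative control cells. SARAF, which restrains the entry, rose 1.46-fold (edgeR adjusted p = 0.0379).

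In the list of kinases and export genes that return NFATC proteins to the cytoplasm, 1 of 14 tested was lower and 0 were higher. This list also holds HOMER2 and HOMER3, which are neither kinases nor export genes. The median log2 fold change of the 14 genes was -0.31. CSNK1A1, a casein kinase that phosphorylates NFATC proteins, had 14.3 and 9.25 FPKM in CCL20-overexpression cells against 25.9 and 24.3 FPKM in negative control cells (log2 fold change -0.90, edgeR adjusted p = 0.0148). With the mRNA length offset it was at -1.65 (edgeR adjusted p = 0.0120), and GSK3B, named after its value was seen, was called at -0.93 (edgeR adjusted p = 0.0160). The annotated principal mRNAs of these 2 genes, 1098 and 1636 nt, are far shorter than their exonic lengths of 7714 and 8156 nt, and which transcripts these cells use was not tested. The export receptor XPO1, the highest of this list, was at -0.58 (edgeR adjusted p = 0.0991).

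Genes known as targets of calcineurin and NFAT in other cells had 2 higher and 2 lower of 11 tested. The median of their log2 fold changes was 0.09. The growth factor CSF2 had 124 and 95.8 FPKM in CCL20-overexpression cells and 69.6 and 63.6 FPKM in negative control cells, and rose 1.90-fold (edgeR adjusted p = 0.00813). The cytokine IL6 also rose 1.90-fold (edgeR adjusted p = 0.0194). The cyclin CCND1 fell 1.91-fold (log2 fold change -0.93, edgeR adjusted p = 0.00652), and the transferrin receptor TFRC 1.55-fold (edgeR adjusted p = 0.0473). RCAN1, named as the calcineurin inhibitor that NFAT induces, had 7.37 and 5.87 FPKM in CCL20-overexpression cells and 6.16 and 8.10 FPKM in negative control cells (log2 fold change 0.09, edgeR adjusted p = 0.742). With the mRNA length offset 0 were higher and 3 were lower. These were CCND1 (-0.61, edgeR adjusted p = 0.0465) and, named after their values were seen, MYC (-0.73, edgeR adjusted p = 0.0299) and VEGFA (-1.19, edgeR adjusted p = 0.0212). The principal mRNAs of MYC and VEGFA, 1365 and 1199 nt, are likewise shorter than their exonic lengths of 3001 and 14431 nt.

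Among the NF-kB genes, which share the Rel homology region, 1 of 4 tested was higher and 0 were lower. RELB rose 1.61-fold (log2 fold change 0.69, edgeR adjusted p = 0.0278). Under the mRNA length offset it was at 0.51 (edgeR adjusted p = 0.121). NFKB2, the highest, was at 0.21 (edgeR adjusted p = 0.506). REL, named after its value was seen, is the fifth and was under the minimum of 1 FPKM. It had 68 and 37 counts in CCL20-overexpression cells and 358 and 300 in negative control cells. In the fit with a minimum of 0.2 FPKM it fell 5.52-fold (log2 fold change -2.46 with SE 0.32, edgeR adjusted p = 0.00102). The mRNA length offset at that minimum gave -1.71 (SE 0.30, edgeR adjusted p = 0.0131). Its mRNA of 11255 nt is of the length class of NFAT5.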

How the data were processed

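RNA of 4 libraries was analysed from 2 groups of CAL27 cells, prepared from 1.5 µg of RNA each, per the labels' protocols. HISAT2 (no version), HTSeq 0.13.5 and GRCh38 are named in the submitters' processing notes. The sources used here do not give the annotation, trimming or strandedness of counting. The authors deposited raw counts, as whole numbers of reads for each gene. Beside them the authors deposited FPKM, which equals the count scaled by gene length and by the library's total count. All 29437 genes matched GENCODE 29 by identifier and name, which gave positions and mRNA lengths (the median of the principal transcripts). FPKM uses the exonic length, 99.7% of which equal that in GENCODE 29.

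The test was edgeR 4.0.16 in R 4.3.3 (quasi-likelihood, TMM, two-sided, Benjamini-Hochberg adjustment, threshold 0.05) on 12168 genes averaging 1 FPKM or more. The SE is the size of the log2 fold change over the square root of F. It called 2010 genes higher and 1905 lower, 32.2% in all; on a TPM scale it called 500 higher and 4516 lower, and with total count scaling 1251 and 2985. limma 3.58.1 and DESeq2 1.42.0 were alternatives. The mRNA length offset is a natural spline with 5 degrees of freedom on log2 mRNA length, fitted in each library to log2 CPM centred per gene. The fit was tested on simulated data. The chi-square of counts between replicates was 38.01 per gene in CCL20-overexpression cells and 6.45 in negative control cells, and all 4 libraries were kept as separate samples. Members and lists were chosen with earlier results of these data known. Genes named are the 6 members, up to 4 called genes of each list by p and its highest gene, the 3 coding neighbours on each side of NFAT5, the 3 genes before and after it by fold change, the 5 most like it, and CCL20; exceptions are marked. Genes named for a role were added after their values were seen. Some genes that the rule names are not reported here. Alternatives were scalings, filters, tests, pseudocounts, length offsets, blocking on replicate number and omission of 1 library at a time.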

Additional observations from a re-analysis of the deposited data

How the results depend on the processing

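In all alternatives run, the log2 fold change was below 0 for NFAT5 and NFATC3 and above 0 for AKR1B1, though for AKR1B1 it came down to 0.02. NFATC3 was past the threshold in all of them, with a log2 fold change of -2.37 to -1.28. NFAT5, given without a test, was at -2.03 with limma on log2(FPKM + 1), a scale that understates changes of low genes, at -2.17 with the exonic length offset and at -2.00 with the mRNA length offset at either minimum. Among the alternatives that kept all 4 libraries, the AKR1B1 call ended with limma at pseudocounts of 1 and 0.1 (0.43 each) and with the exonic length offset (0.41). It also ended with the mRNA length offset (0.02, and 0.11 at the lower minimum), with total count scaling (0.43) and on the TPM scale (0.14). NFATC2 became past the threshold with total count scaling (-0.87) and on the TPM scale (-1.15). NFATC4 changed sign without a minimum (0.00568) and with the mRNA length offset (0.34). NFATC1 and NFATC4 had no value in fits with a minimum of 1 FPKM. The share of NFAT5 in the summed NFAT values, taken on counts, was 31.8% in CCL20-overexpression cells and 65.0% in negative control cells, against 19.9% and 49.6% in FPKM, since counts do not allow for the length of NFAT5. Where not stated, the cause was not tested.

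Counts of calls moved more. The numbers of genes higher and lower were 1251 and 2985 with total count scaling, 500 and 4516 on the TPM scale, 1211 and 721 with the exonic length offset, 386 and 340 with the mRNA length offset and 579 and 431 with it at the lower minimum, an alternative added after seeing the data. Those higher were 1245 and 1176 with limma at pseudocounts of 1 and 0.1. Called genes per list changed as follows. With total count scaling they were 2 for calcineurin, 5 for NFAT kinases, 10 for cell volume and 1 for polyol genes. On the TPM scale they were 5 for osmotic targets, 3 for calcineurin, 8 for kinases, 12 for cell volume and 0 for polyol genes. With limma at either pseudocount they were 2 for calcineurin, 4 for kinases and 1 for polyol genes. With the exonic length offset they were 3 for osmotic targets, 2 for calcineurin, 2 for calcium entry, and 1 each for NFAT targets, cell volume and polyol genes, with 0 for Rel genes. With the mRNA length offset they were 1 for osmotic targets, 2 for kinases, 1 for calcium entry, and 0 for cell volume, Rel and polyol genes. At the lower minimum these 5 lists other than Rel had the same numbers, 1, 2, 1, 0 and 0. Without a minimum kinases had 3, and Rel genes had 2 there and at 0.2 FPKM.

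The replicate numbers share no stated source. The correlation of replicate differences between the groups was 0.265 over 12168 genes, a hint from 2 pairs only. With the replicate block 2840 genes were higher and 2918 lower, NFATC2 was past the threshold (-0.68, edgeR adjusted p = 0.0181), and the lists had 4 called genes for calcineurin, 6 for kinases, 7 for NFAT targets and 10 for cell volume.

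Leaving out each library in turn gave between 318 and 3742 genes higher and between 332 and 3837 lower, with the fewest without negative control replicate 1 and the most without CCL20-overexpression replicate 1. The numbers were 455 and 534 without negative control replicate 2, and 3182 and 3231 without CCL20-overexpression replicate 2. In these fits the lone library is assumed to vary like the other group's pair. The log2 fold change ranged from -3.57 to -2.33 for NFAT5, from -0.88 to -0.47 for NFATC2, from -2.03 to -1.75 for NFATC3 and from 0.53 to 0.73 for AKR1B1. Called genes ranged from 2 to 12 for osmotic targets, 0 to 4 for calcineurin, 0 to 10 for kinases, 2 to 9 for calcium entry, 0 to 7 for NFAT targets, 1 to 12 for cell volume, 0 to 4 for Rel and 0 to 3 for polyol genes. NFATC1 and NFATC4 had few counts, and the parts of depth and of replicate spread in their SEs were not told apart.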
